A study of Mus musculus with 10 samples.

Results

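The vascular endothelial growth factor (VEGF) family was followed in whole mouse liver through 9 genes: the ligand genes Vegfa, Vegfb, Vegfc and Pgf, the receptor genes Kdr, Flt1 and Flt4, and the neuropilin co-receptor genes Nrp1 and Nrp2. They were taken by symbol from a list chosen with earlier results of these data known, and all 9 were found among the 55385 gene IDs of the files. RNA came from frozen, homogenised liver of 10 libraries. Of these, 5 were labelled Control, with the genotype given as Ctrl, and 5 Alk1-HEC-KO, with the genotype given as KO, for a knockout of Alk1, also called Acvrl1. The labels give no age, sex, strain, treatment, Cre driver or deleted exon, and do not spell out HEC or say that libraries came from separate animals. P-values therefore measure the spread between these libraries, which may be technical.

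VEGF ligands are secreted dimers that bind receptor tyrosine kinases on endothelial cells. VEGFA signals mainly through KDR (VEGFR2), while FLT1 (VEGFR1) binds VEGFA, VEGFB and placental growth factor (PGF) and, as a decoy, limits the VEGFA that reaches KDR. VEGFC acts on FLT4 (VEGFR3), best known from lymphatic vessels, and neuropilins hold both VEGF and class 3 semaphorin ligands for other receptors. In liver, hepatocytes are a known source of VEGFA, and sinusoidal endothelial cells carry the receptors and depend on VEGFA for their fenestrae. ALK1 is an endothelial receptor for circulating BMP ligands and is known to restrain VEGF-driven sprouting.

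Depth was even, at 20.91 to 21.56 M estimated counts (M, 1e6) per library. The targeted gene did not point lower. Acvrl1 lay between 0.296 and 1.05 TPM (transcripts per M, a level per length) in the control libraries and between 1.12 and 1.92 TPM in the others. In log2 CPM (CPM, counts per M) the groups overlapped. The log2 fold change of 0.99 ± 0.32 (SE) did not pass (edgeR quasi-likelihood test, adjusted p = 0.336). Gene totals of whole liver cannot show whether exons were lost in 1 cell type, so these values do not test the label. The group is therefore called labelled knockout, and each direction rests on the label. Hepatocyte markers dominated every library, with Alb at 36000 ± 9220 and 36400 ± 10200 TPM (SD, n = 5 each). Some libraries stood apart. The immediate early gene Fos was high in control libraries 1 and 2 (27.6 and 24.2 TPM), the other 8 libraries lying between 1.09 and 4.92 TPM. The acute phase gene Saa1 was high in control library 4 (6590 TPM) and in the labelled knockout libraries numbered 4 and 5 (6730 and 13300 TPM), the other 7 libraries lying between 49.7 and 874 TPM. The numbers in the deposited file names fall into 3 runs: control libraries 1 and 2 with labelled knockout library 1, control libraries 3 to 5 with labelled knockout library 3, and labelled knockout libraries 2, 4 and 5 alone. The labels do not say what these numbers are, and in the third run, which holds no control, run and group cannot be told apart.

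Pgf was the family member that separated the groups. Its transcript was counted in every labelled knockout library and in no control library, at a low level. Of the other 8 members, all of which were tested, none was called in either direction, and Nrp2 alone had an unadjusted p under 0.05. The background in the same fit was 46 called genes of 12872 tested, or 0.357%, and 8.44% of tested genes had an unadjusted p under 0.05 (edgeR). The 4 members pointing higher were Kdr, Flt1, Flt4 and Nrp2, and the 4 pointing lower were Vegfa, Vegfb, Vegfc and Nrp1. The median log2 fold change was -0.02 over the tested members and 0.00 over all tested genes. DESeq2 and limma on the same libraries also called none of the 8. The log2 CPM of the groups overlapped for all 8, against 1.68% of tested genes without overlap. Intervals of the fold changes are wide, so a member that was not called is not shown to be equal in the groups.

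**Figure D1:**
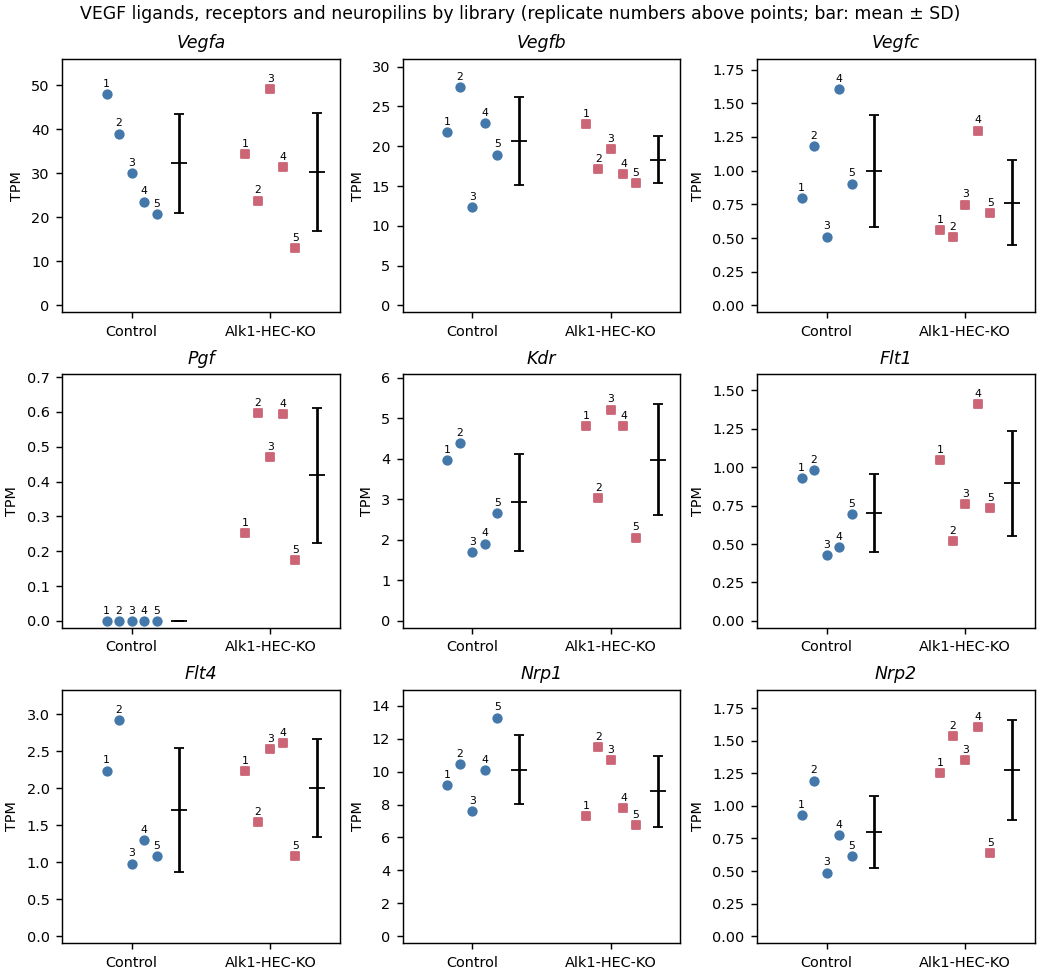
TPM (y axis) of each of the 9 genes in 5 Control (circles) and 5 Alk1-HEC-KO (squares) libraries, with replicate numbers above the points and the mean ± SD as a bar. Pgf stands at 0 in all 5 Control libraries and between 0.175 and 0.597 TPM in the Alk1-HEC-KO libraries, while the groups overlap for the other 8 genes.

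Pgf (ENSMUSG00000004791.7, chromosome 12, 85166635 to 85177790, minus strand, GRCm38) encodes placental growth factor, a ligand of FLT1 and the neuropilins that is low in most adult tissues. The 5 control libraries all held 0 estimated counts and 0 TPM. Labelled knockout libraries 1 to 5 held 7, 15, 12, 17 and 5 counts, or 0.253, 0.597, 0.469, 0.594 and 0.175 TPM. The groups did not overlap. Of 2563 untested genes with at least 30 counts in all, 39 (1.52%) were higher without overlap in TPM. Another 8 (0.312%) were lower without overlap. The lowest labelled knockout library for Pgf was the fifth, which had the highest Saa1.

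The Pgf difference was tested over libraries because the gene was below the count filter of the fit. Mean TPM was 0 in controls and 0.418 ± 0.195 in labelled knockout libraries (SD, n = 5 each), and a two-sided exact permutation test gave p = 0.00794, which is as low as 5 against 5 libraries can go. This p is not adjusted over the members, which were chosen with earlier results of these data known. In all, 56 counts (95% exact Poisson interval 42.3 to 72.7, counting error only) of 105.7 M stood against 0 of 106.3 M. Taking 3 counts over the whole control group as the limit that a count of 0 allows, or 0.0282 CPM (counts per M), Pgf was at least 18.8-fold higher at the observed count, and at least 14.2-fold higher at the lower end of its counting interval. When no filter was applied, Pgf passed over all genes (edgeR, adjusted p = 6e-05). In the fit without the 2 control libraries with high Fos it entered past the filter through the labelled knockout libraries alone, so its value there (edgeR, adjusted p = 0.0945) is no independent test.

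A count of 0 in one whole group was compared over genes of like depth. Of 2563 untested genes with at least 30 counts in all, 2 (0.078%) were at 0 in every control library and above 0 in every labelled knockout library, Pgf and the collagen gene Col28a1, the latter named after its values were seen. None had the opposite pattern. The pattern compared is that of Pgf itself. Pgf reached 30 counts through the labelled knockout libraries alone, so these shares are given as a description. Within the first run of file numbers Pgf was at 0 in 2 control libraries and at 0.253 TPM in the labelled knockout library, and within the second at 0 in 3 and at 0.469 TPM. Without the third run the permutation p was 0.0952, the smallest that 2 against 5 libraries allow. Control library 4, with high Saa1, held no Pgf count, and labelled knockout libraries 1 to 3, with Saa1 at most at 874 TPM, held 7 to 15. Labelled knockout libraries 4 and 5, with high Saa1, held 17 and 5, and both lie in the third run. The part of the acute phase in the Pgf difference was not tested.

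Cell markers were read beside Pgf. Markers of continuous endothelium, which lines capillaries outside the sinusoids, summed to 22.8 to 39.6 TPM in controls and 67.6 to 125 TPM in labelled knockout libraries. Of the 8 tested, 5 were called higher (Ly6c1, Cd34, Emcn, Cav1 and Cldn5), against 0.186% of all tested genes, and Vwf alone pointed lower, at 1.56 ± 0.445 and 0.987 ± 0.535 TPM (SD, n = 5; edgeR, adjusted p = 0.379). Ly6c1, with 25 counts in controls and 900 in labelled knockout libraries, passed the count filter only through the latter. This list was chosen with earlier results of these data known, so its calls are given as a description. Kupffer cell markers summed to 82.8 to 135 and 124 to 265 TPM, and recruited leukocyte markers to 20.8 to 35.3 and 34.5 to 100 TPM, with none called among 8 and 6 tested. All 8 and all 6 pointed higher, with median log2 fold changes of 0.75 and 1.06. Of them, 6 and 3 had an unadjusted p under 0.05 (edgeR), against 8.44% of all tested genes. The sums of both lists overlapped between the groups, as did those of stellate cell, smooth muscle and cholangiocyte markers. No listed marker was at 0 in all libraries. The part of any of these cells in the Pgf difference was not tested. In bulk tissue, more cells of a type and more RNA per cell cannot be told apart.

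Vegfa (ENSMUSG00000023951.17, chromosome 17, 46016993 to 46032369), the main angiogenic ligand, was the most abundant member in both groups. Control libraries 1 to 5 held 48.1, 39.0, 30.1, 23.6 and 20.8 TPM, and labelled knockout libraries 1 to 5 held 34.4, 23.8, 49.1, 31.4 and 13.0 TPM. The groups overlapped almost completely, and the library with the most Saa1 held the least Vegfa. Means were 32.3 ± 11.3 and 30.3 ± 13.4 TPM (SD, n = 5), and the log2 fold change was -0.22 with a 95% interval of -0.73 to 0.30 (edgeR, adjusted p = 0.841). Its direction turned in 4 settings: 0.115 with the run of file numbers as a term, 0.10 without the third run, 0.113 within the first 2 runs, and 0.02 without the high-Fos libraries. Within the first run the labelled knockout library lay below both controls (34.4 against 39.0 and 48.1 TPM), and within the second above all 3 (49.1 against 20.8 to 30.1 TPM).

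Vegfb (ENSMUSG00000024962.13, chromosome 19, 6982473 to 6987651), a ligand of FLT1 linked to fatty acid handling more than to vessel growth, was second. It ranged from 12.3 to 27.4 TPM in controls and from 15.4 to 22.8 TPM in labelled knockout libraries. Here the control group was the wider one and enclosed the other. The log2 fold change was -0.22 ± 0.15 (SE; 95% interval -0.54 to 0.10; edgeR, adjusted p = 0.719).

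Vegfc (ENSMUSG00000031520.6, chromosome 8, 54077606 to 54187096), the lymphangiogenic ligand, was scarce, with 182 and 158 counts over the 5 libraries of each group. Control libraries held 0.795, 1.18, 0.511, 1.60 and 0.904 TPM and labelled knockout libraries 0.560, 0.509, 0.748, 1.30 and 0.688 TPM. The fourth library of each group was the highest, and the groups overlapped. The log2 fold change was -0.26 with a wide interval of -0.97 to 0.46 (edgeR, adjusted p = 0.864). It was -0.605 without labelled knockout library 4 and -0.094 without labelled knockout library 2. Vegfd, the other ligand of FLT4, was lower still, at 0.407 ± 0.0858 and 0.369 ± 0.170 TPM (SD, n = 5), and did not pass (edgeR, adjusted p = 0.875).

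Kdr (ENSMUSG00000062960.10, chromosome 5, 75932827 to 75978458), the main signalling receptor, was the most abundant of the 3 receptors. Control libraries 1 to 5 held 3.96, 4.38, 1.70, 1.90 and 2.67 TPM, and labelled knockout libraries 4.79, 3.04, 5.21, 4.79 and 2.06 TPM. Control libraries 1 and 2 lay above labelled knockout libraries 2 and 5 and below the other 3, and labelled knockout library 5 lay among the lower controls. The log2 fold change was 0.375 with an interval of -0.21 to 0.96 (edgeR, adjusted p = 0.744).

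The Kdr difference depended on the control libraries compared. Within the first run of file numbers the labelled knockout library held 4.79 TPM against a control mean of 4.17, and within the second 5.21 TPM against 2.09. With the run as a term the log2 fold change was 0.68 (edgeR, unadjusted p = 0.0307). Without the 2 control libraries with high Fos, which are also those of the first run, it was 0.78 (unadjusted p = 0.0143). Neither passed after adjustment (edgeR, adjusted p = 1 and 0.674).

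Flt1 (ENSMUSG00000029648.13, chromosome 5, 147561604 to 147726011), the receptor for VEGFA, VEGFB and PGF, ranged from 0.427 to 0.983 TPM in controls and from 0.518 to 1.41 TPM in labelled knockout libraries. Its highest value was in labelled knockout library 4, and the groups overlapped. The log2 fold change was 0.27 ± 0.29 (SE; 95% interval -0.36 to 0.90; edgeR, adjusted p = 0.84). Without the 3 libraries with high Saa1 the direction turned, to -0.12. Leaving out labelled knockout library 4 gave 0.07, and leaving out the high-Fos libraries 0.58. Gene totals add membrane-bound and soluble forms of FLT1 and do not give the level of each.

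Flt4 (ENSMUSG00000020357.3, chromosome 11, 49609263 to 49652739), the receptor for VEGFC, held 2.24, 2.92, 0.981, 1.30 and 1.08 TPM in controls and 2.23, 1.54, 2.52, 2.61 and 1.08 TPM in labelled knockout libraries. As for Kdr, the first 2 control libraries were high and the other 3 low. The log2 fold change was 0.17 with an interval of -0.44 to 0.79 (edgeR, adjusted p = 0.894). It was 0.69 without the high-Fos libraries (edgeR, unadjusted p = 0.0172, adjusted p = 0.731), 0.42 with the run of file numbers as a term, and 0.04 without labelled knockout library 4. Lymphatic markers gave no called gene of 4 tested, and summed to 10.7 to 27.1 and 8.73 to 20.5 TPM. The most abundant of them, Prox1, is also a hepatocyte gene.

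The upstream sequences of Kdr and Flt1 are shown because both receptor genes varied with the endothelial markers across libraries. They are the bases before the RefSeq start site, on the minus strand of GRCm38.p6, outside any annotated exon: 247 bases for Kdr at chr5:75978459-75978705 and 250 bases for Flt1 at chr5:147726012-147726261. Capitals mark ACGTG or GCGTG, the core bound by hypoxia-inducible factors, and AGGAAG or CGGAAG, a core bound by ETS factors such as ERG, each on either strand.
Kdr: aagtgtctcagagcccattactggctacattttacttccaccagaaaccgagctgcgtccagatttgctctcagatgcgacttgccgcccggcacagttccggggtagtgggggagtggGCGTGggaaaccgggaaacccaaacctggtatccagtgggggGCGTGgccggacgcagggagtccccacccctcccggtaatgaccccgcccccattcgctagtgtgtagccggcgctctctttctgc
Flt1: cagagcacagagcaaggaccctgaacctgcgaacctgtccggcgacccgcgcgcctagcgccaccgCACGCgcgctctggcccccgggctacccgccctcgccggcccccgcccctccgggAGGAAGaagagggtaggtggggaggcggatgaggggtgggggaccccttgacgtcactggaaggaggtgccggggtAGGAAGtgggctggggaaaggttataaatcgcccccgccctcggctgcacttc
The Kdr window held 2 hypoxia cores and no ETS core in these letters, and the Flt1 window 1 hypoxia core and 2 ETS cores. Of 32851 RefSeq promoter windows of 250 bases, 38.6% held such a hypoxia core and 39.2% such an ETS core, so a match is common. The windows upstream of both RefSeq starts of Pgf lie wholly within annotated exons and are not shown.

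Nrp1 (ENSMUSG00000025810.9, chromosome 8, 128358604 to 128503363), a co-receptor also carried by stellate cells and some leukocytes, was the third most abundant member. Control libraries held 9.17, 10.4, 7.62, 10.1 and 13.3 TPM, and labelled knockout libraries 7.29, 11.5, 10.7, 7.78 and 6.76 TPM. The 3 lowest of the 10 values included 2 labelled knockout libraries, and the groups overlapped. The log2 fold change was -0.29 with an interval of -0.59 to 0.005 (edgeR, adjusted p = 0.595). Without control library 5, the highest, it was -0.15.

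Nrp2 (ENSMUSG00000025969.15, chromosome 1, 62703285 to 62818695), the partner of FLT4 and of class 3 semaphorins, came closest to the threshold among the tested members. Control libraries held 0.929, 1.19, 0.488, 0.776 and 0.615 TPM, and labelled knockout libraries 1.25, 1.53, 1.35, 1.61 and 0.638 TPM. Labelled knockout libraries 1 to 4 lay above all 5 controls, and library 5 lay among the controls. Mean TPM was 0.800 ± 0.276 against 1.28 ± 0.384 (SD, n = 5). The fitted log2 difference was 0.60, its interval running from 0.14 to 1.07 (edgeR, unadjusted p = 0.015, adjusted p = 0.44). Over 26 alternative settings it stayed between 0.33 and 0.89 without passing (edgeR, DESeq2 or limma, lowest adjusted p = 0.266). An antisense gene, Gm29083, overlaps Nrp2, but it reached at most 0.089 TPM in any library.

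**Figure D2:**
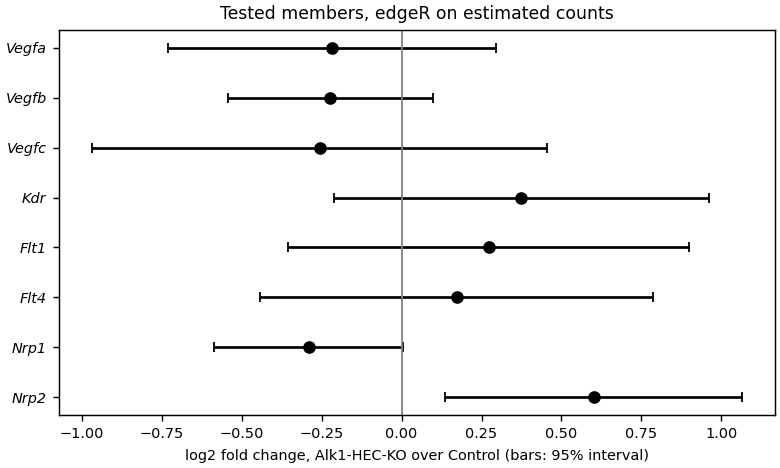
Log2 fold change of Alk1-HEC-KO over Control libraries (x axis) with 95% intervals for the 8 tested members (y axis). The interval of Nrp2 (0.14 to 1.07) lies above 0 before adjustment, and those of the other 7 include 0.

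The order of levels was the same in both groups down to the fifth gene: Vegfa, Vegfb, Nrp1, Kdr, Flt4. In controls Vegfc (0.999 ± 0.415 TPM), Nrp2 (0.800 ± 0.276) and Flt1 (0.703 ± 0.252) followed (SD, n = 5). In labelled knockout libraries Nrp2 (1.28 ± 0.384), Flt1 (0.894 ± 0.344) and Vegfc (0.761 ± 0.315) did, with Pgf (0.418 ± 0.195) last. Only the steps from Nrp1 to Kdr in both groups, from Vegfb to Nrp1 in labelled knockout libraries, and from Flt1 to the absent Pgf in controls had ranges that did not overlap. The ranges of the remaining neighbours overlapped. Within libraries some steps were steadier. Kdr exceeded Flt4 in 5 of 5 libraries of each group, and Vegfb exceeded Nrp1 in 5 of 5 controls. Flt4 exceeded Nrp2 and Flt1 exceeded Vegfc in 5 of 5 labelled knockout libraries, narrowly in library 2 (1.541 and 1.535, 0.518 and 0.509 TPM). In controls, Flt4 exceeded Vegfc and Nrp2 exceeded Flt1 in 4 of 5, and Vegfc exceeded Nrp2 in 3 of 5. In labelled knockout libraries, Nrp2 exceeded Flt1 and Vegfc exceeded Pgf in 4 of 5. Vegfa exceeded Vegfb in 5 of 5 control and 4 of 5 labelled knockout libraries.

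Ratios of TPM within a library compare members without the depth or scale of that library. Across 6 ratios none passed after Benjamini-Hochberg adjustment over the 6 (exact two-sided permutation tests of mean log2 ratios, 5 against 5 libraries). The Nrp2:Nrp1 ratio was 0.0805 ± 0.0275 in controls and 0.146 ± 0.0433 in labelled knockout libraries (SD, n = 5; exact permutation p = 0.0238, adjusted p = 0.119). It exceeded the highest control, 0.114, in 4 of 5 labelled knockout libraries. The Vegfa:Kdr ratio was 11.8 ± 3.85 and 7.46 ± 1.25 (exact permutation p = 0.0397, adjusted p = 0.119), with control libraries 2 and 5 inside the labelled knockout range of 6.31 to 9.42. Vegfa:Flt1, Vegfc:Flt4 and Flt4:Kdr had adjusted p = 0.295 each in the same permutation tests, and Flt1:Kdr 0.643.

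The Flt1:Kdr ratio differed in spread more than in mean. It lay at 0.225 to 0.262 in the 5 controls, a near-constant proportion while Kdr itself ranged from 1.70 to 4.38 TPM. In labelled knockout libraries 1 to 5 it was 0.218, 0.171, 0.146, 0.294 and 0.358. Labelled knockout libraries 4 and 5, which have high Saa1, lay above all controls, and labelled knockout libraries 1 to 3 lay below all controls. Control library 4, also with high Saa1, had a ratio of 0.253. A link between Saa1 and this ratio was not tested. The difference in spread was not tested. Flt1 rests on 58 to 175 counts per library.

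**Figure D3:**
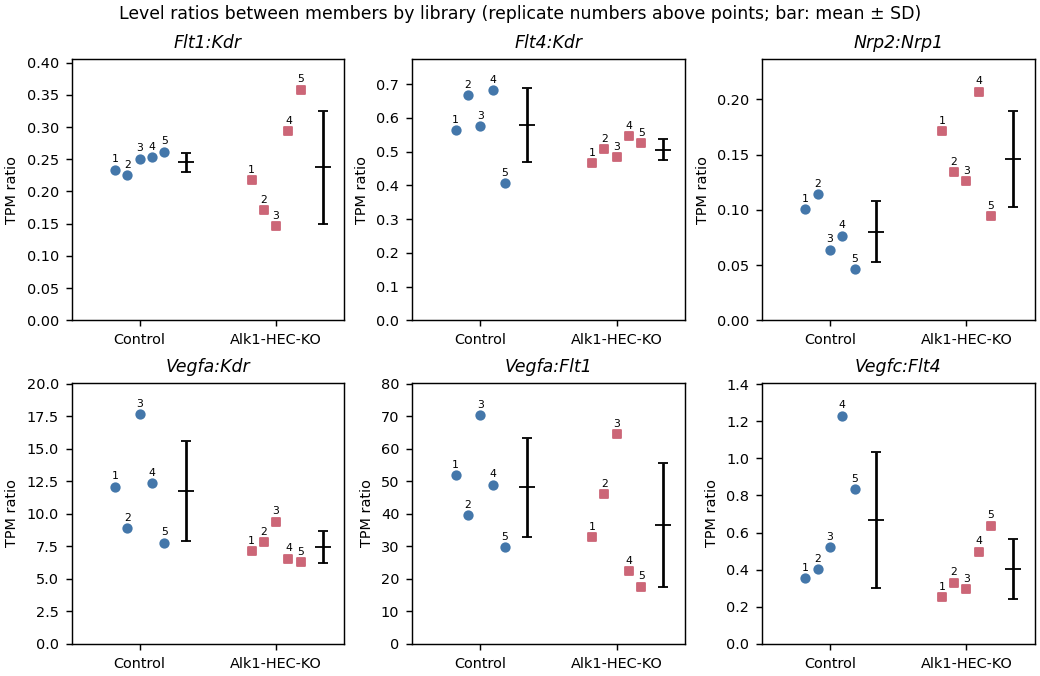
TPM ratio (y axis) for 6 pairs of members in 5 Control (circles) and 5 Alk1-HEC-KO (squares) libraries, with replicate numbers above the points and the mean ± SD as a bar. Nrp2:Nrp1 is higher than every Control library in 4 of 5 Alk1-HEC-KO libraries, and Flt1:Kdr is tight in Control (0.225 to 0.262) and wide in Alk1-HEC-KO (0.146 to 0.358).

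The 3 receptor genes varied with endothelial markers across libraries. A set of 12 pan-endothelial markers, none of them a member, averaged 2.37 to 3.36 log2 CPM in controls and 3.03 to 4.15 in labelled knockout libraries. None of the 12 was called, but 11 pointed higher, with a median log2 fold change of 0.78. Of the 12, 8 had an unadjusted p under 0.05 (edgeR), against 8.44% of all tested genes. After each group's mean was subtracted, the correlation with this average over the 10 libraries was r = 0.86 for Kdr (Spearman rho 0.95), r = 0.90 for Flt1 (rho 0.88) and r = 0.85 for Flt4 (rho 0.86). Without the 2 libraries farthest from the median it was 0.88, 0.84 and 0.81. Vegfa gave r = 0.67 (rho 0.745; 0.62 without those 2), Nrp2 0.65 (rho 0.66; 0.39) and Vegfc 0.61 (rho 0.54; 0.26). Vegfb (r = 0.28, rho 0.285; 0.47) and Nrp1 (r = -0.36, rho -0.42; -0.25) gave lower values. These values describe libraries that share depth scaling and tissue composition, and carry no p.

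**Figure D4:**
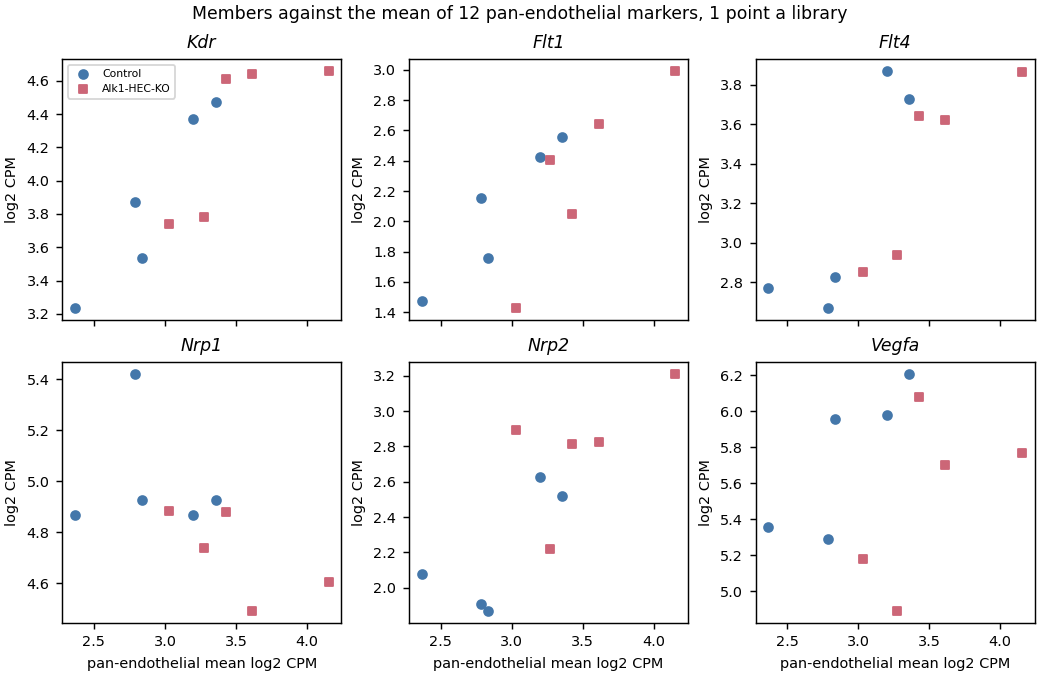
Log2 CPM of 6 members (y axes) against the mean log2 CPM of 12 pan-endothelial markers (x axis), 1 point per library, circles Control and squares Alk1-HEC-KO. Kdr, Flt1 and Flt4 climb with the marker mean in both groups, and Nrp1 does not.

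Set against the same marker average, no tested member was higher in the labelled knockout libraries without overlap. Only 0.186% of all tested genes were, so this is no result about the members. The member's log2 CPM minus the marker mean was 0.99 ± 0.20 in controls and 0.785 ± 0.31 in labelled knockout libraries for Kdr (SD, n = 5), a difference of -0.20. The difference was 0.00 for Nrp2, -0.36 for Flt1 and -0.38 for Flt4, and the groups overlapped for these 4. The groups also overlapped for Vegfa (-0.83) and Nrp1 (-0.87). For Vegfb (-0.81) and Vegfc (-0.905) the groups did not overlap, with the labelled knockout libraries lower. That held for 9.19% of all tested genes, since the marker mean itself was higher in the labelled knockout libraries. Sinusoidal markers overlapped instead, at 49.1 to 98.9 and 54.4 to 108 TPM in sum, with no call among 9 tested and a median log2 fold change of 0.02.

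Members also varied with each other. Kdr and Flt4 had r = 0.91 over the 10 libraries after group means were subtracted, Kdr and Flt1 0.78, and Flt4 and Nrp2 0.81. Nrp1 was negatively related to each of the other 7 tested members, from -0.52 with Vegfc to -0.20 with Kdr. The genes most like each member, by the same measure among genes of at least 1 TPM, were Gpr182, Cnot3 and Aqp8 for Kdr (r = 0.96, 0.955 and 0.95), Rabl6, Gpihbp1 and Fam167b for Flt1 (0.96, 0.96 and 0.95), and Atxn7, Bicd2 and Otud1 for Flt4 (0.96, 0.94 and 0.94). Gpr182 and Gpihbp1 are endothelial genes. Slc17a4, Trim33 and C1s1 were nearest to Nrp2 (0.94, 0.94 and 0.93), and Ehmt2, Armc5 and Mettl2 to Nrp1 (0.92, 0.92 and 0.90). For the ligands they were Cdk17, Mdm4 and Rc3h2 (Vegfa, 0.94, 0.93 and 0.92), Bag2, Phrf1 and Knop1 (Vegfb, 0.97, 0.96 and 0.92), and Eid1, Rnf139 and Emilin1 (Vegfc, 0.93, 0.93 and 0.92). Each was picked as the highest of a large set of genes over 10 libraries, and carries no p.

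Other genes of the pathway were read from 8 lists holding 105 genes, of which 89 were tested. Apln and Pdgfb were called higher and none lower, against 0.186% of all tested genes called higher. Both belong to the list of genes that respond to VEGF in endothelium, where 13 of 16 tested genes pointed higher with a median log2 fold change of 0.73. Over all tested genes, 6483 of 12872 pointed higher. Of the 12 pan-endothelial markers, 11 did, with a median of 0.78, so the shift was not particular to this list. The lists were chosen with earlier results of these data known, so these counts are given as a description. Apln, a peptide of sprouting endothelium, was counted once (1 count) in the 5 controls together and 269 times in the 5 labelled knockout libraries together (edgeR, adjusted p = 0.00646). It passed the count filter only through the labelled knockout libraries, so its call is given as a description. The call was lost without control library 2 (edgeR, adjusted p = 0.138). Pdgfb, which recruits pericytes, rose from 0.313 ± 0.0892 to 1.52 ± 1.06 TPM (SD, n = 5; edgeR, adjusted p = 0.0345), a call lost on leaving out any single control library or labelled knockout library 3 or 4 (edgeR, adjusted p from 0.0599 to 0.115). With the run of file numbers as a term neither passed (edgeR, adjusted p = 0.0558 and 0.42). In the same list Plvap, the diaphragm gene and the most abundant over all 10 libraries, stood at 19.2 ± 3.12 and 22.2 ± 3.48 TPM. The 3 that pointed lower were Nr4a1 (21.5 ± 22.6 and 3.08 ± 2.51 TPM), Nr4a2 and Rcan1 (edgeR, adjusted p = 0.534, 0.483 and 0.374), named after their values were seen. Immediate early genes, Fos among them, also pointed lower in 6 of 6 tested, summing to 100 to 328 and 69.6 to 176 TPM, and their part in these values was not tested.

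Semaphorin ligands and plexin receptors of the neuropilins had no call among 6 tested, 5 of which pointed higher, with a median of 0.66. Plxnd1, the endothelial plexin, stood at 2.97 ± 0.717 and 7.39 ± 3.03 TPM without overlap in log2 CPM (edgeR, adjusted p = 0.203), where 0.948% of all tested genes were higher without overlap. Sema3f stood at 1.52 ± 0.296 and 2.62 ± 0.760 TPM (edgeR, adjusted p = 0.259). Receptor partners and brakes had no call among 17 tested (median 0.095), with Cdh5, the junctional partner of KDR, at 2.66 ± 0.904 and 5.27 ± 1.85 TPM, Rasip1 at 1.55 ± 0.389 and 2.95 ± 1.18 TPM, and the endocytic adaptor Epn1 the most abundant. The 27 tested genes of receptor signalling had none either (median -0.08), the smallest p being that of Hspb1, a heat shock gene phosphorylated downstream of KDR, at 31.3 ± 5.74 and 19.8 ± 5.15 TPM (edgeR, adjusted p = 0.107). Fyn and Map2k2 had log2 fold changes of 0.83 and -0.03.

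Oxygen sensing, a known regulator of Vegfa, gave no call among 8 tested genes (median log2 fold change -0.05), nor did targets of hypoxia-inducible factors among 8 (median 0.24). Egln3, a HIF prolyl hydroxylase, stood at 5.81 ± 2.21 and 4.10 ± 1.52 TPM (SD, n = 5), and Ndrg1, a target, at 2.07 ± 0.662 and 3.25 ± 0.920 TPM (edgeR, adjusted p = 0.521 and 0.377). Hif1an and Ero1a pointed lower (-0.32 and -0.26), and the abundant Egln2 and Ldha pointed higher (0.05 and 0.48). Among angiopoietins and TIE receptors, Tie1 (1.95 ± 0.624 and 3.65 ± 0.822 TPM; edgeR, adjusted p = 0.145) had the smallest p of 4 tested, and Tek stood at 1.02 ± 0.366 and 1.23 ± 0.401 TPM (edgeR, adjusted p = 0.859). Genes that supply or process VEGFC and VEGFD, led by the protease gene Furin (50.1 ± 11.0 and 57.2 ± 20.4 TPM), had no call among 5 tested and a median of -0.04.

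**Figure D5:**
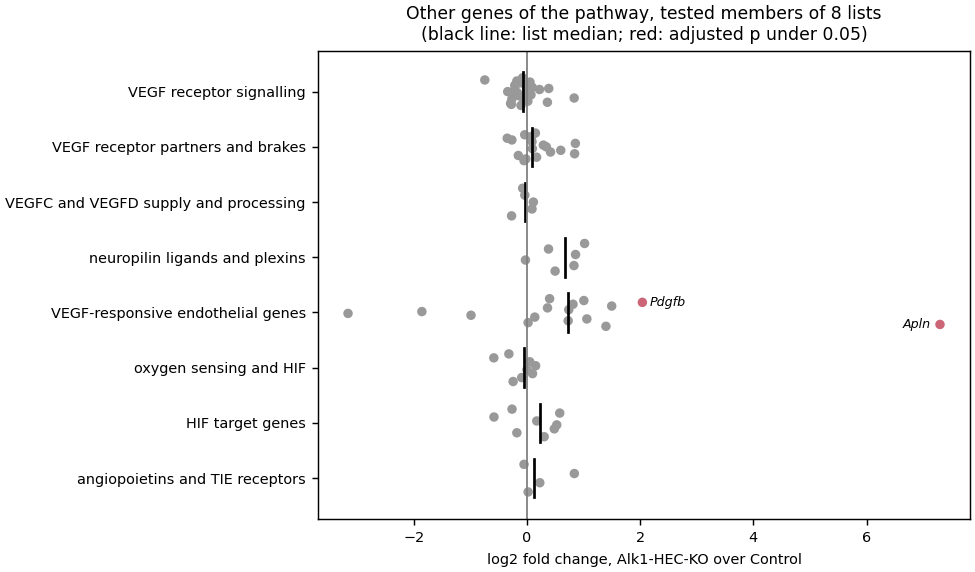
Log2 fold change of Alk1-HEC-KO over Control libraries (x axis) for the tested genes of 8 pathway lists (y axis), 1 point per gene, with the list median as a black line and called genes in red. Apln and Pdgfb are the called genes, and the medians run from -0.08 to 0.73.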

How the data were processed

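Per the submitters' processing notes, reads were handled with Trim Galore 0.6.4 and kallisto 0.4.6 on GRCm38.p6. The step from transcripts to genes and the use of strand are not given in the sources used here. The authors deposited estimated counts and TPM (transcripts per 1e6 in each library) for 55385 gene IDs, of which 55144 were matched to a symbol.

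Estimated counts were rounded, filtered with filterByExpr (minimum count 10), scaled by TMM (factors 0.869 to 1.107) and fitted in R 4.3.3 with edgeR 4.0.16 (robust quasi-likelihood F-test, a design of group alone without covariates). Benjamini-Hochberg adjustment ran over the 12872 tested genes, with calls at an adjusted p under 0.05. Log2 CPM came from the same scaling. Pgf, below the filter, and ratios of TPM were compared by exact permutation of libraries. Symbols and coordinates are from GENCODE M21 (GRCm38), and upstream sequences from RefSeq (GRCm38.p6), which held all 9 members.

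Alternatives used DESeq2 1.42.0, limma 3.58.1, other filters and scalings, and subsets of libraries. Members and lists were chosen with earlier results of these data known. Genes named were the members, called genes, the 2 smallest p and the most abundant gene of each pathway list, and the 3 nearest patterns of each tested member.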

Additional observations from a re-analysis of the deposited data

How the results depend on the processing

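No tested member was called in any of 26 alternative fits except the one without a count filter, where 1 was called, Pgf. Vegfa turned direction in 4 of them (0.115 with the run of file numbers as a term, 0.099 without the third run, 0.113 within the first 2 runs with the run as a term, 0.016 without the high-Fos libraries) and Flt1 in 1 (-0.123 without the high-Saa1 libraries). The Pgf difference in mean TPM, 0.418, was 0.361 without the third run, where no smaller p than 0.0952 was possible, and 0.373 to 0.478 on leaving out each library (exact permutation p = 0.0159 each, the smallest that 4 against 5 allow). The Flt1:Kdr difference in log2 ratio, -0.121, ran from -0.289 to 0.035 on leaving out each library and turned without labelled knockout library 3. Without the third run it was -0.452, with Vegfa:Flt1 at -0.007 (all libraries -0.493) and Vegfc:Flt4 at -1.136 (-0.662), none passing.

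The count over all genes, 46, was 152 by DESeq2, 119 with no filter, 5 with the run as a term, 18 without the third run, 25 within the first 2 runs, 30 without the high-Saa1 libraries, 17 without the high-Fos libraries, and 33 to 83 on leaving out each library, the highest being without labelled knockout library 1. The count of called pathway genes, 2, was 5 by DESeq2 (Hspb1, Plxnd1 and Tie1 besides Apln and Pdgfb), 4 with no filter, 1 by limma voom, on log2(TPM + 0.1), without the third run, within the first 2 runs and with an offset for transcript length, and 0 on log2(TPM + 1), with a minimum count of 30, with the run as a term and without the high-Fos libraries. Leaving out each library gave 0 to 4. The causes were not tested.

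Same-numbered libraries deviated from their group means with r = 0.276, 0.084, -0.1, -0.038 and 0.108 for numbers 1 to 5. These values cannot settle whether the numbers pair libraries, and the labels do not say so. With the replicate number as a block, 40 genes, 0 members and 2 pathway genes were called, Apln and, in place of Pdgfb (adjusted p = 0.0724), Rcan1 (lower, adjusted p = 0.0274). The length offset, the fit within the first 2 runs and the Pgf value without the third run were chosen after seeing the data. Low counts of Pgf, Vegfc and Flt1 limit their precision.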

Other observations

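The deposited counts and TPM together give an average transcript length for each gene and library, which reflects the estimated mix of isoforms. It was scaled on 569 genes with 1 annotated transcript, and its absolute size is approximate. Vegfa, with 13 annotated transcripts of 463 to 3451 bases, averaged 2001 ± 203 bases in controls and 1981 ± 164 bases in labelled knockout libraries (SD, n = 5), between the shortest and longest forms. Flt1, with 6 annotated transcripts of 274 to 6895 bases, averaged 7022 ± 67.2 and 6846 ± 272 bases, near its longest form in every library. Nrp2 averaged 6691 ± 38.1 and 6709 ± 67.9 bases, and Kdr 6166 ± 12.3 and 6161 ± 6.97 bases. The control mean of Flt1 and both means of Kdr exceeded the longest annotated form (6895 and 5924 bases). The scaled lengths thus run too long for these genes and do not settle which form was used. The groups overlapped for all 8 members with counts in both. Pgf averaged 1492 ± 40.7 bases in the labelled knockout libraries, its annotated transcripts running from 688 to 2080 bases.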
